A study of Mus musculus with 12 samples.

Results

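The 10 core genes of the circadian clock were followed in newborn mouse liver and lung by RNA sequencing, as 10 of the 24421 genes listed in each count table. They are the activators *Arntl* (also called *Bmal1*), *Clock* and *Npas2*, the repressors *Per1*, *Per2*, *Per3*, *Cry1* and *Cry2*, and the REV-ERB receptors *Nr1d1* and *Nr1d2*. All 10 were found by their symbol and all 10 passed the filter on low counts in each comparison. The genes were chosen on the null-versus-WT values of these same libraries, so those values are given for the 10 genes as a description. Where one of these genes is said to be called or to pass in a contrast of genotypes, that only describes its place in the fit over all genes. Livers and lungs came from WT (*Man1a2* +/+) and null (*Man1a2* -/-) pups on the day of birth, and the 12 libraries formed 4 groups of 3 by genotype and tissue. The product of *Man1a2*, a mannosidase of the Golgi, trims N-linked glycans. The null pups, of the line *Man1a2tm1.1Ahe*, lack exon 2 of this gene and were bred from heterozygous parents. Tissue was taken soon after birth, and the clock time of birth or harvest is not given in the sources used here.

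In the mammalian clock, ARNTL pairs with CLOCK or NPAS2, binds E-box sequences and drives the Per, Cry and Nr1d genes. PER and CRY proteins then return to the nucleus and restrain the same activators, which closes a loop of about a day. In a second loop, the REV-ERB receptors repress *Arntl* through ROR response elements, and the ROR receptors activate it at the same sites. In adult liver, *Arntl* and the REV-ERB genes therefore peak at nearly opposite times of day, whereas fetal and newborn tissues are known for weak or immature rhythms.

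Each library held 26759463 to 42914295 counted reads, and a floor of 3 reads equalled 0.0538 to 0.126 CPM, the count scaled to the TMM-adjusted library size. *Man1a2* gave 50.7 ± 2.76 CPM in null against 69.9 ± 16.4 CPM in WT livers and 47.5 ± 4.33 against 95.9 ± 17.7 CPM in lungs (mean ± SD, n = 3 each). The null libraries lay below the WT ones in both tissues without passing the test (edgeR adjusted p = 0.0809 in liver and 0.0614 in lung). Reads on the exons that remain still counted towards the gene. Hepatocyte markers summed to 156851 to 254189 CPM in all 6 livers, and all 7 were detected. Lung epithelial markers summed to 20442 to 27766 CPM in 5 lungs but to 301 CPM in null lung 1, whose skeletal and cardiac muscle markers summed to 18790 CPM against 85.1 to 306 CPM in the other 5. All 8 lung epithelial markers were detected in that library, with *Sftpc*, the surfactant protein of alveolar type 2 cells, at 26.4 CPM. The library labelled null lung 1 thus held little lung epithelial RNA, and lung results are given with and without it. Muscle markers also stood at 6632 CPM in null liver 1 against 4.44 to 5.32 CPM in the other livers. Red cell markers overlapped between the genotypes, at 2190 to 2793 CPM in WT and 2052 to 3683 CPM in null liver, and at 98.4 to 293 and 120 to 281 CPM in lung, with *Hbb-bt*, *Hba-a1* and *Hba-a2* listed at 0 in all 12 libraries. Neutrophil markers overlapped as well, at 2150 to 4444 and 3088 to 4904 CPM in liver and 181 to 295 and 189 to 487 CPM in lung. In these bulk samples, fewer cells of a type and less RNA per cell cannot be told apart.

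The start-site sequences of 6 members are shown because they hold the letters of elements known from the clock loops. Windows of 250 bases before to 50 bases after a RefSeq start (GRCm38.p6) were found for 9 of the 10 genes, *Per2* being the one without an entry, and gave 13 windows in all. Both strands were searched for the E-box CACGTG, the variant E-box CACGTT, the D-box TTANGTAA, the cyclic AMP response element TGACGTCA and the core of the ROR element TAGGTCA, and matches are in capitals, the variant E-box in the opposite orientation as AACGTG. Positions count from the start site to the first base of the match. *Arntl* (chr7:113207261-113207560, plus strand) had the ROR core at +31. *Nr1d1* (chr11:98775328-98775627, minus strand) had the variant E-box at -28. *Cry1* (chr10:85185005-85185304, minus strand) had an E-box at -60 and the variant at -79, and *Cry2* (chr2:92434020-92434319, minus strand) had the variant at -166. *Per1* (chr11:69098699-69098998, plus strand) had an E-box at -166, and *Per3* (chr4:151044616-151044915, minus strand) had D-boxes at -205 and -158.
Arntl: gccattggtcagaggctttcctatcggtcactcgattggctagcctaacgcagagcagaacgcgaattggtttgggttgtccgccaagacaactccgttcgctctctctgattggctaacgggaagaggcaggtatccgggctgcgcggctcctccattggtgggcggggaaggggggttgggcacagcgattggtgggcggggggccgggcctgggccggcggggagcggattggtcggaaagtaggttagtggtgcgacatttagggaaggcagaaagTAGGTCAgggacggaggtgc
Nr1d1: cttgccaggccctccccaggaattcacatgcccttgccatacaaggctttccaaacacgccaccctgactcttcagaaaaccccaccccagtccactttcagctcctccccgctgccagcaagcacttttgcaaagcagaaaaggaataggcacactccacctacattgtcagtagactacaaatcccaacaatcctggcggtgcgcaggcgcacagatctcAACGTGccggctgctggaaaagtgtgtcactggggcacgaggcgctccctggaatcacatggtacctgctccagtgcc
Cry1: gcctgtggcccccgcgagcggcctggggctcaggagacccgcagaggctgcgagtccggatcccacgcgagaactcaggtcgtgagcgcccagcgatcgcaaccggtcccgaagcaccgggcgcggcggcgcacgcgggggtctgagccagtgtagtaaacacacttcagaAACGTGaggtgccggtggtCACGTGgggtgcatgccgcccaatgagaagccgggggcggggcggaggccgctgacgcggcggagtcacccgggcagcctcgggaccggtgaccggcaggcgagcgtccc
Cry2: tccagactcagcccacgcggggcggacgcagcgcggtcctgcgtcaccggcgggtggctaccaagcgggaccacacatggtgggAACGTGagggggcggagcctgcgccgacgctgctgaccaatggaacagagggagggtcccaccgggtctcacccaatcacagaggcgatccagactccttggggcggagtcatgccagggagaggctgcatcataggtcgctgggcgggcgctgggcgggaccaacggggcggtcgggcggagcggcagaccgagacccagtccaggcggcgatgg
Per1: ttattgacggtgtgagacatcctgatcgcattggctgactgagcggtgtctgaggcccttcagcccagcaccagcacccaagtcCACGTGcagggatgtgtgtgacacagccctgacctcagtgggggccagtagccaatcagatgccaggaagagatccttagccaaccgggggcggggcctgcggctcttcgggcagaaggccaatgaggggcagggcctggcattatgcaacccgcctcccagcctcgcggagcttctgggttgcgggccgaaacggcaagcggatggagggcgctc
Per3: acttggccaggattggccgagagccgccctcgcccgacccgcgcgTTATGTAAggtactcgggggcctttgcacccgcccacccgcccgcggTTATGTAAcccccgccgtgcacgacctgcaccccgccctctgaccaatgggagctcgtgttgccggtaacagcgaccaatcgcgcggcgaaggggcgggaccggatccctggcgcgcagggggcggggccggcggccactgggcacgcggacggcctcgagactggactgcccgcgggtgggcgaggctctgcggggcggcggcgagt
The other 7 windows, among them those of *Clock*, *Npas2* and *Nr1d2*, held none of these letters. Of 32851 mouse windows of the same length, 7.15% held the E-box, 4.68% the variant, 2.32% the D-box, 1.79% the cyclic AMP element and 2.61% the ROR core. A match describes the letters and is not a site shown to be bound.

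WT livers and lungs were compared first, a contrast that the choice of genes did not use. Per kilobase of annotated exon, *Per1* was the most abundant clock transcript in both WT tissues, at 12.7 ± 3.10 CPM per kb in liver and 28.1 ± 3.51 in lung (SD, n = 3). *Npas2* had the lowest mean, at 0.435 ± 0.0568 CPM per kb in liver and 2.51 ± 0.563 in lung. *Arntl* (4.48 ± 0.393 and 4.21 ± 0.304), *Clock* (3.25 ± 0.210 and 4.68 ± 0.244) and the 2 REV-ERB genes (3.44 to 8.28) lay between them. Of the 10 genes, 9 differed between the WT tissues, 7 being higher and 2 lower in lung, by the quasi-likelihood test of edgeR, with p-values adjusted by the Benjamini-Hochberg method over all 15635 genes and a minimum change of 1.2-fold. In that comparison 77.0% of all genes tested passed, 39.8% higher and 37.2% lower in lung, so 9 of 10 stands near the background.

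*Npas2*, the partner that can take the place of CLOCK, showed the widest gap. Its levels were 2.29, 1.77 and 2.19 CPM in WT livers and 8.89, 13.7 and 13.5 CPM in WT lungs, without overlap (5.67-fold, SE 0.22 on the log2 scale, edgeR adjusted p = 4.48e-06). The period genes were higher in lung together, *Per3* by 2.71-fold (adjusted p = 1.7e-05), *Per1* by 2.18-fold (adjusted p = 0.000269) and *Per2* by 1.84-fold (adjusted p = 0.000106) in the edgeR fit. *Cry1* was 1.77-fold and *Clock* 1.42-fold higher in lung (edgeR adjusted p = 0.000109 and 0.000443). *Cry2* was 1.37-fold higher (edgeR adjusted p = 0.0396), a call lost without any one of WT liver 2, WT liver 3, WT lung 1 or WT lung 2, with log2 fold changes from 0.31 to 0.45. The REV-ERB genes went the other way, with *Nr1d1* at 0.552 times and *Nr1d2* at 0.658 times its liver level in lung (edgeR adjusted p = 0.00826 and 0.000406). *Arntl* stood at 30.8, 36.7 and 33.5 CPM in WT livers and 29.5, 31.5 and 34.0 CPM in WT lungs, which overlapped (log2 fold change -0.10 ± 0.09 (SE), edgeR adjusted p = 0.351).

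**Figure D1:**
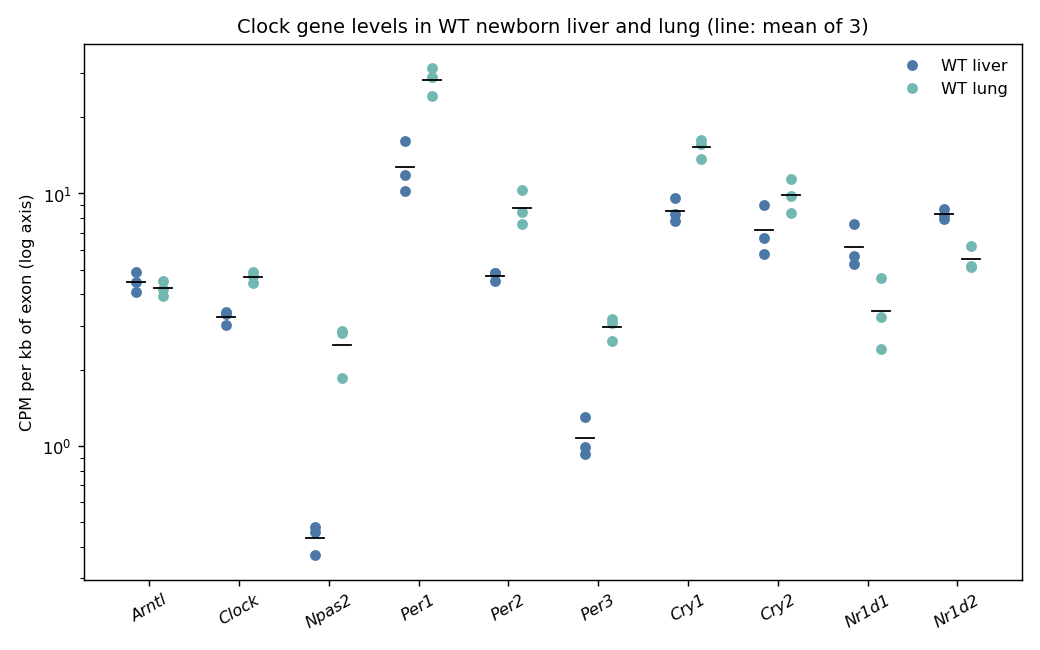
Levels of the 10 clock genes in WT newborn liver (blue) and lung (teal), as CPM per kilobase of annotated exon on a log axis. Points are libraries and lines are means of 3. By means, Npas2 lies lowest and Per1 highest in both tissues, and the 2 tissues overlap for Arntl and Cry2.

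The genotypes were then compared in liver, to see how the limbs of the clock stood in pups without *Man1a2*. Both REV-ERB genes, *Per1*, *Cry2* and also *Arntl* were higher in null liver, *Per2* and *Cry1* were lower, and *Clock*, *Npas2* and *Per3* did not pass. The cut-off above picked out 7 of the 10 genes, of which 5 stood higher and 2 lower in null, where 26.9% of all 14343 genes tested were called, 13.5% higher and 13.4% lower. Libraries of the 2 genotypes did not overlap for *Per3* and the 7 called genes, and for 46.6% of all genes tested. Nothing is read from these shares, since the genes were chosen with this contrast in view.

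Among the activators, *Arntl* stood at 30.8, 36.7 and 33.5 CPM in WT livers and at 57.7, 65.2 and 53.2 CPM in null livers. Every null liver was above every WT liver, with a 1.74-fold higher level (log2 fold change 0.80 ± 0.11, SE). *Clock*, its usual partner, gave 46.8, 45.8 and 41.4 CPM in WT and 39.7, 30.7 and 45.2 CPM in null livers. These ranges overlapped (log2 fold change -0.22 ± 0.15, SE). *Npas2* was low throughout, at 1.77 to 2.29 CPM in WT and 1.61 to 2.19 CPM in null livers (log2 fold change -0.12 ± 0.24, SE).

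The period genes, of which *Per1* and *Per2* are known to respond to light and hormones, split in liver. *Per1* gave 91.2, 57.5 and 66.7 CPM in WT and 212, 237 and 241 CPM in null livers. It was 3.19-fold higher in null (log2 fold change 1.67 ± 0.19, SE), and the lowest null liver stood well above the highest WT liver. *Per2* gave 26.4, 28.3 and 28.3 CPM in WT and 20.6, 20.2 and 22.9 CPM in null livers, a smaller shift in the other direction (log2 fold change -0.38 ± 0.10, SE). The *Per2* call was lost with the replicate block and without any one of 5 of the 6 livers, among them null liver 1, at log2 fold changes of -0.41 to -0.35. *Per3* gave 12.6, 8.96 and 9.55 CPM in WT and 7.69, 8.67 and 4.67 CPM in null livers. It did not overlap but was not called (log2 fold change -0.57 ± 0.26, SE).

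The cryptochromes, the direct inhibitors of ARNTL and CLOCK, moved apart in liver. *Cry1* gave 32.0, 25.9 and 27.6 CPM in WT and 19.2, 17.7 and 17.8 CPM in null livers, without overlap (log2 fold change -0.65 ± 0.12, SE). *Cry2* gave 57.1, 36.4 and 42.1 CPM in WT and 189, 155 and 194 CPM in null livers. It was 3.95-fold higher in null (log2 fold change 1.98 ± 0.19, SE). In CPM *Cry2* was above *Cry1* in every liver, and per kilobase of annotated exon it was above *Cry1* in null livers only.

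The REV-ERB genes, repressors of *Arntl*, were both higher in null liver, *Nr1d1* by the largest fold of the 10 genes and *Nr1d2* by less than *Cry2* and *Per1*. *Nr1d1* gave 23.3, 17.3 and 16.1 CPM in WT and 92.0, 96.6 and 97.6 CPM in null livers (5.02-fold, log2 fold change 2.33 ± 0.16, SE). *Nr1d2* gave 46.9, 44.5 and 42.9 CPM in WT and 124, 119 and 124 CPM in null livers (2.73-fold, log2 fold change 1.45 ± 0.09, SE). Both sets of null livers lay close together and far above WT. Without null liver 1, the liver with muscle RNA, 6 of the 10 genes were called against 23.8% of all genes tested, and the gene that dropped out was *Per2*.

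**Figure D2:**
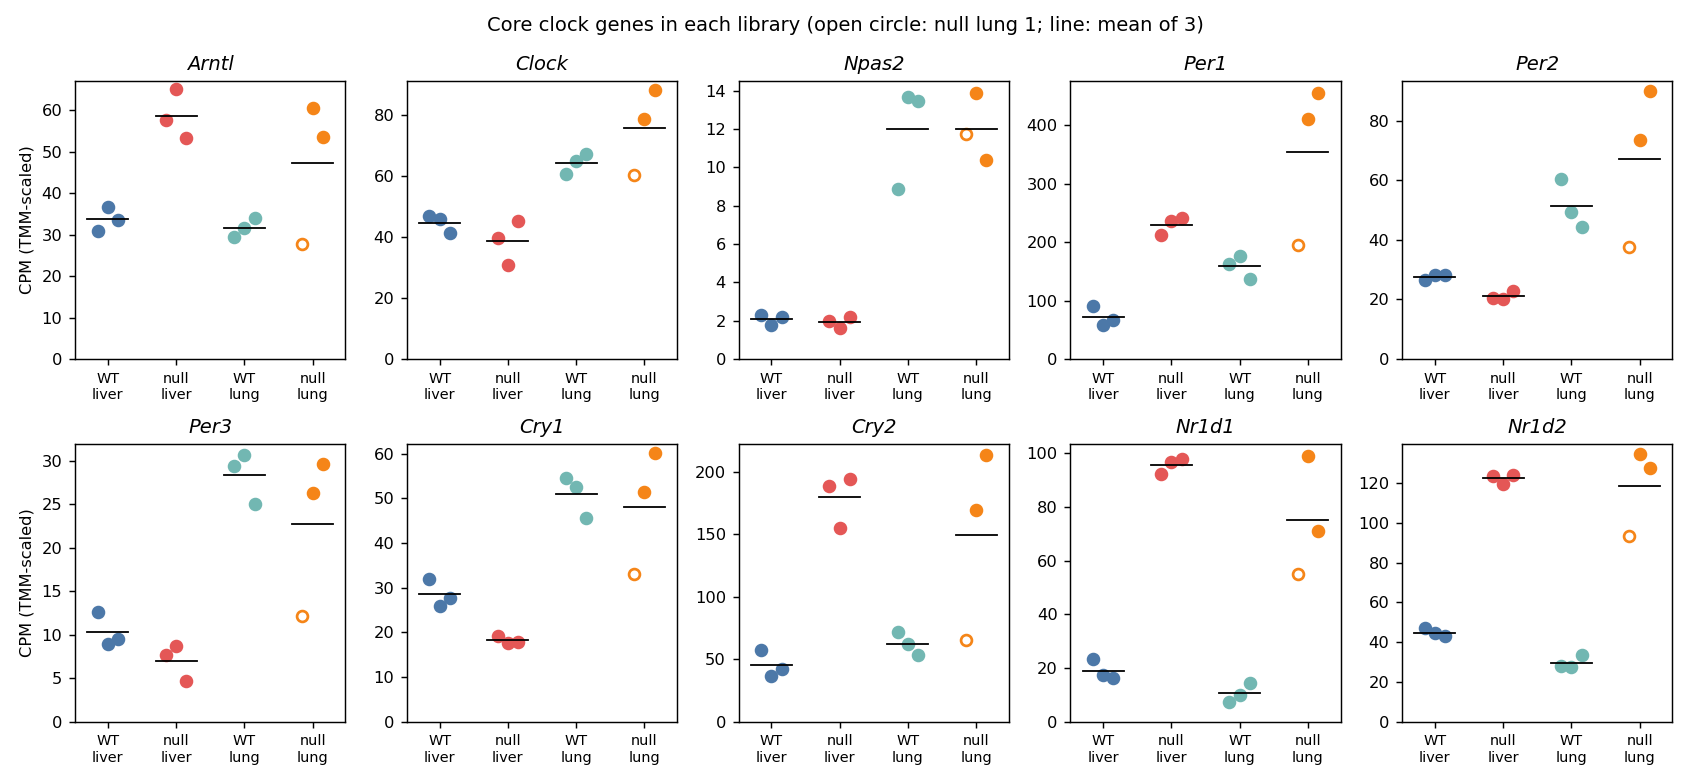
TMM-scaled CPM of each clock gene in the 12 libraries, by genotype and tissue. Points are libraries, lines are means of 3, and the open circle is null lung 1. Null livers lie above all WT livers for Arntl, Per1, Cry2, Nr1d1 and Nr1d2 and below them for Per2, Per3 and Cry1.

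In lung, the REV-ERB genes had the largest fold changes between null and WT, followed by *Cry2* and *Per1*. *Cry1*, *Per3* and *Npas2* did not pass with or without null lung 1. With all 6 lungs, 2 of the 10 genes were called, *Nr1d1* and *Nr1d2*, both higher in null. Of 15591 genes tested 0.327% were called, 0.0898% higher and 0.237% lower, and the adjusted p-values of all 51 called genes lay between 0.0405 and 0.04997 in the edgeR fit. Without null lung 1, 7 of the 10 genes were called, all higher in null (*Arntl*, *Clock*, *Per1*, *Per2*, *Cry2*, *Nr1d1* and *Nr1d2*), where 37.0% of all genes were called, 18.0% higher and 19.0% lower. Without any other single lung, 0 of the 10 and 0 of all genes tested were called in edgeR. The part that the muscle RNA and the missing epithelial RNA of null lung 1 had in these counts was not tested. Libraries of the genotypes did not overlap for *Per1*, *Nr1d1* and *Nr1d2* and for 35.9% of all genes tested.

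*Nr1d1* gave 7.44, 10.03 and 14.3 CPM in WT lungs and 98.9 and 71.1 CPM in null lungs 2 and 3, with 54.9 CPM in null lung 1. The lowest null lung was thus above every WT lung, and the log2 fold change was 2.82 ± 0.33 (SE) with all 6 lungs and 2.998 ± 0.26 (SE) without null lung 1. *Nr1d2* gave 27.9, 27.6 and 33.7 CPM in WT lungs and 134 and 128 CPM in null lungs 2 and 3, with 93.2 CPM in null lung 1 (log2 fold change 2.00 ± 0.18 and 2.13 ± 0.12 without it, SE). For both receptors, null lung 1 was the lowest null lung and still far from WT.

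For *Arntl*, *Clock*, *Per2* and *Cry2*, null lung 1 lay with or below the WT lungs while null lungs 2 and 3 lay above them. *Arntl* gave 29.5, 31.5 and 34.0 CPM in WT lungs, 60.5 and 53.7 CPM in null lungs 2 and 3, and 27.7 CPM in null lung 1. Its log2 fold change was 0.58 ± 0.29 with all 6 lungs and 0.84 ± 0.11 without null lung 1 (SE), close to the 0.80 of liver. *Cry2* gave 72.1, 62.0 and 53.1 CPM in WT lungs, 170 and 214 CPM in null lungs 2 and 3, and 65.3 CPM in null lung 1 (1.26 ± 0.42 with it and 1.61 ± 0.16 without it, log2 fold change and SE). *Per1* gave 162, 176 and 137 CPM in WT lungs, 411 and 456 CPM in null lungs 2 and 3, and 195 CPM in null lung 1 (1.16 ± 0.33 with it and 1.45 ± 0.13 without it). Thus *Cry2* and *Per1* were higher in null lungs 2 and 3 as they were in null liver, and null lung 1 was above the WT lungs for *Per1* but not for *Cry2*.

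*Per2* and *Cry1*, lower in null liver, were not lower in null lungs 2 and 3. *Per2* gave 60.4, 49.4 and 44.2 CPM in WT lungs, 73.6 and 89.9 CPM in null lungs 2 and 3, and 37.6 CPM in null lung 1 (log2 fold change 0.39 ± 0.32 with it and 0.67 ± 0.15 without it, SE). *Cry1* gave 54.5, 52.6 and 45.6 CPM in WT lungs, 51.5 and 60.1 CPM in null lungs 2 and 3, and 33.0 CPM in null lung 1. The sign of its small difference turned with that library (-0.08 ± 0.23 with it and 0.13 ± 0.12 without it, log2 fold change and SE). *Per3* ranged from 25.1 to 30.7 CPM in WT lungs and stood at 26.3 and 29.7 CPM in null lungs 2 and 3, with 12.2 CPM in null lung 1. *Npas2* overlapped fully, at 8.89 to 13.7 CPM in WT and 10.4 to 13.9 CPM in null lungs. *Clock* was 60.5 to 67.1 CPM in WT lungs, 78.7 and 88.2 CPM in null lungs 2 and 3 and 60.4 CPM in null lung 1 (log2 fold change 0.24 ± 0.17 with it and 0.37 ± 0.11 without it, SE).

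**Figure D3:**
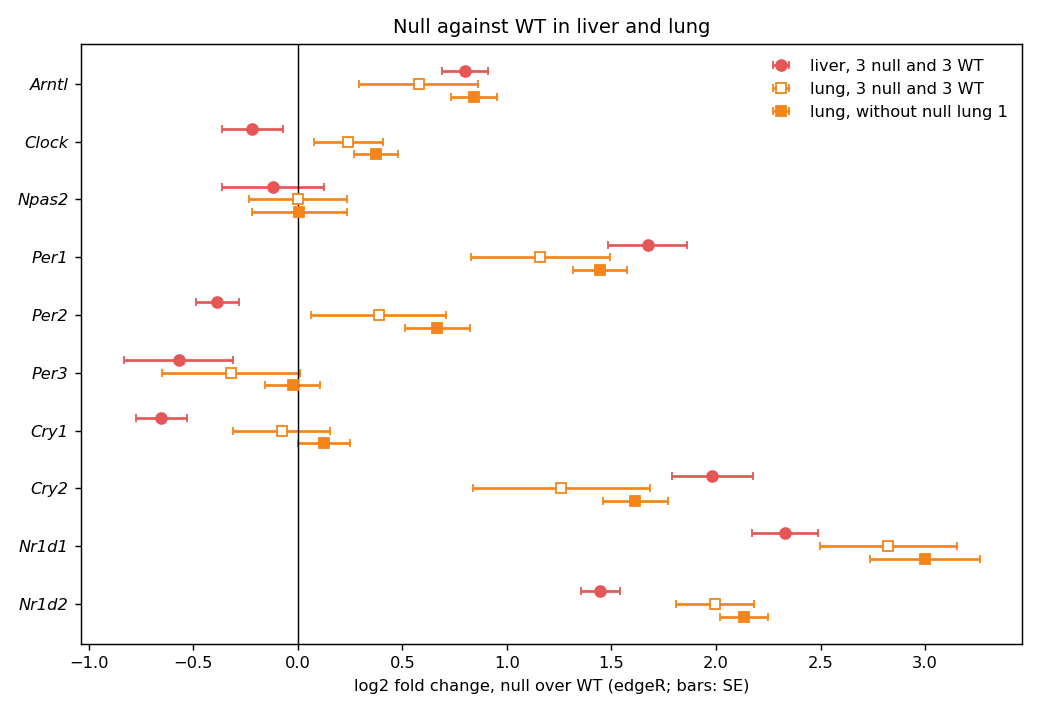
Log2 fold change of null over WT for each clock gene, with standard errors from edgeR, in liver (circles), in lung with all 6 libraries (open squares) and in lung without null lung 1 (filled squares). Nr1d1, Nr1d2, Cry2, Per1 and Arntl lie to the right of 0 in both tissues, and Per2 and Cry1 lie to the left of 0 in liver but not in lung without null lung 1.

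Set in order by group means of CPM, *Nr1d1* and *Nr1d2* ran from null liver over null lung and WT liver to WT lung, with overlap only between the null groups. *Per1* ran from null lung over null liver and WT lung to WT liver, again with overlap only between the null groups. *Cry2* ran from null liver over null lung and WT lung to WT liver, and *Arntl* from null liver over null lung and WT liver to WT lung, with neighbours overlapping at each step. *Cry1* and *Per3* ran from WT lung over null lung and WT liver to null liver, and *Per2* from null lung over WT lung and WT liver to null liver. In these 3 genes the lung groups overlapped, and the WT and null livers lay apart, while null lung also overlapped WT liver for *Per3*. For *Npas2* and *Clock*, the gap that separated neighbours was the one between lung and liver.

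Whether the 2 tissues differed in the null-minus-WT difference was fitted over all 12 libraries. For the 10 genes, 0 differences passed in edgeR's quasi-likelihood test, with 1 at an unadjusted p under 0.05, and DESeq2 called 0 as well, where edgeR called 0.371% of 16155 genes. Without null lung 1, the differences of *Per2*, *Cry1* and *Nr1d2* passed (5.0% of all genes did), each with a higher value in lung than in liver, by 1.07, 0.80 and 0.71 on the log2 scale. Libraries of the same number and genotype deviated together in liver and lung over all genes, but not over the 10 genes alone (correlations of -0.591 to 0.535). With that number as a block, 0 of the 10 and 0 of all genes passed. As with each genotype contrast, these values describe genes chosen with them in view.

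Ratios of 2 members within a library do not depend on how libraries are scaled. *Nr1d1* over *Arntl*, repressor over its target, was 1.16 to 1.85 per kilobase in WT livers and 3.62 to 4.48 in null livers. In lung it was 0.618 to 1.02 in WT and 3.24 to 4.84 in null, null lung 1 being the highest. All 6 null libraries were therefore above all 6 WT libraries. The mean was 4.003 in null liver and 4.03 in null lung, or 3.62 over null lungs 2 and 3. *Nr1d2* over *Arntl* was 1.69 to 2.12 and 2.55 to 3.24 in WT and null livers, and 1.22 to 1.38 and 3.09 to 4.67 in WT and null lungs.

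*Cry2* over *Cry1* was 0.743 to 0.944 in WT livers and 4.65 to 5.77 in null livers. In WT lungs it was 0.615 to 0.699, and in null lungs 1.05, 1.74 and 1.88, the lowest being null lung 1. Per kilobase, *Cry2* was thus below *Cry1* in all 6 WT libraries and above it in all 6 null libraries. This crossing rests on the annotated exon lengths, 3340 bp for *Cry1* and 6320 bp for *Cry2*. In CPM *Cry2* stood above *Cry1* in every library, WT and null, so only the higher ratio in null is read here. *Per1* over *Per2*, both period genes, was 2.11 to 3.59 in WT and 10.7 to 12.2 in null livers, and 2.79 to 3.71 in WT and 5.28 to 5.80 in null lungs. Here null lung 1, at 5.40, lay between the other null lungs, although its CPM of both genes were the lowest of the 3. *Per1* over *Per3* likewise was 10.9 to 12.4 in WT livers, 46.6 to 87.9 in null livers, 9.33 to 9.80 in WT lungs and 26.2 to 27.3 in null lungs. *Arntl* over *Clock* was 1.19954 to 1.48 in WT and 2.15 to 3.87 in null livers, but 0.886 to 0.926 in WT and 0.838 to 1.40 in null lungs, which overlapped through null lung 1.

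**Figure D4:**
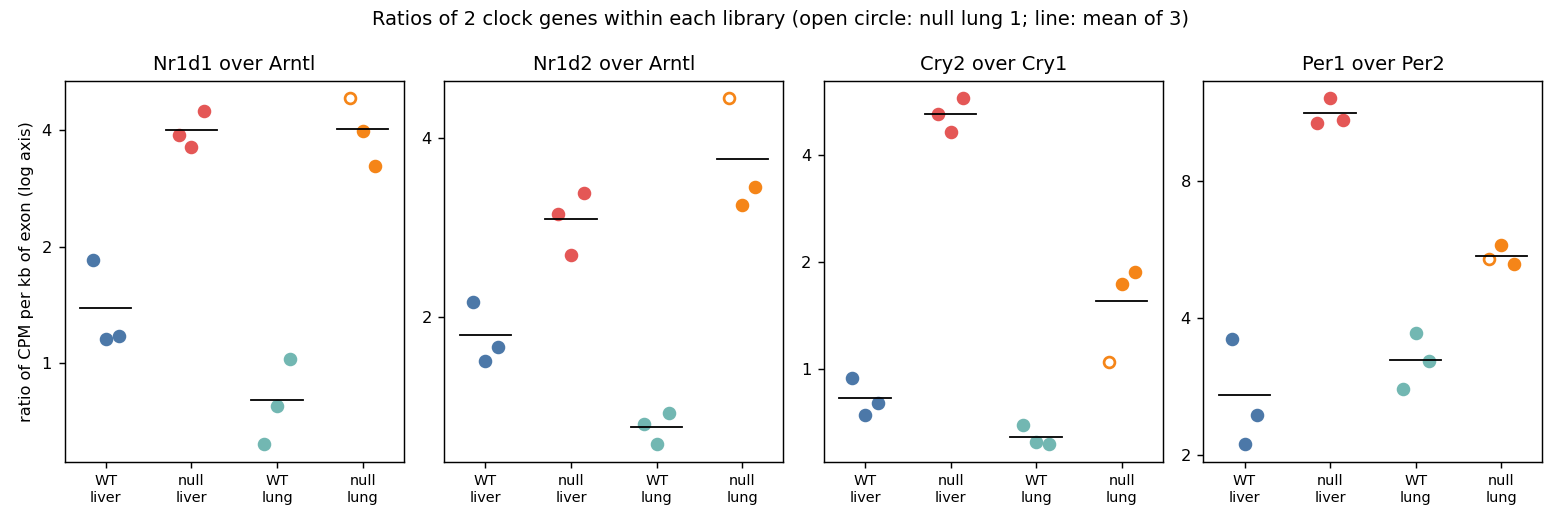
Ratios of 2 clock genes within each library, from CPM per kilobase of exon, on a log axis. Points are libraries, lines are means of 3, and the open circle is null lung 1. Null libraries lie above the WT libraries of their tissue in all 4 ratios.

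The limbs as wholes were set against each other by the mean log2(CPM + 0.5) of *Arntl*, *Clock* and *Npas2* minus that of the 7 repressors. This contrast was -0.94 ± 0.17 in WT and -1.63 ± 0.12 in null livers, and -0.52 ± 0.19 in WT and -1.23 ± 0.29 in null lungs (SD, n = 3). The null minus WT difference was -0.68 on the log2 scale in liver and -0.71 in lung, each more than the spread within groups (0.15 and 0.25). Without *Nr1d1* the differences were -0.44 and -0.41. Null lung 1, at -0.93, was the null lung nearest to WT, where the lowest WT lung stood at -0.73.

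Over the 12 libraries, after each gene was centred on its tissue mean, the members other than *Clock* and *Npas2* formed a pair of blocks. *Clock* correlated at 0.13 with *Arntl*, 0.74 with *Per2* and 0.58 with *Cry1*, and *Npas2* at no more than 0.34 with any other member. *Arntl*, *Per1*, *Cry2*, *Nr1d1* and *Nr1d2* had pairwise Pearson correlations of 0.80 to 0.99, and *Per2*, *Per3* and *Cry1* of 0.55 to 0.85, as a description in which the genotype difference and null lung 1 enter every pair. Between *Arntl* and *Nr1d1*, activator and repressor, r was 0.81, and between *Cry1* and *Cry2* it was -0.34. Among 13796 other genes tested in both tissues, *Lsm14a* (r = 0.99), *Senp6* (0.99), *Rapgef6* (0.98), *Ypel5* (0.98) and *Rbm22* (0.98) followed *Arntl* most closely. *Engase* (-0.98), *Pomgnt2* (-0.98), *Map3k12* (-0.97), *1110002L01Rik* (-0.97) and *Poldip2* (-0.96) ran most opposite to it.

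Some members share ground with other genes in GENCODE M21 on GRCm38. *Nr1d1* (chr11:98767932-98775333, minus strand) overlaps *Thra*, a thyroid hormone receptor gene on the opposite strand, over 1075 bp, and 263 bp of exon are common, which is 8.55% of the exons of *Nr1d1*. The library kit kept the strand, but whether counting used it is not given in the sources used here. *Thra* gave 28.2 ± 4.06 and 31.6 ± 3.41 CPM in livers of WT and null pups and 93.7 ± 6.14 and 113 ± 3.30 CPM in their lungs (SD, n = 3), and was not called in either (edgeR adjusted p = 0.381 and 0.210). Per kilobase, *Nr1d1* was 0.797 to 1.28 times *Thra* in WT livers and 3.91 to 5.04 times in null livers, and 0.116 to 0.247 and 0.747 to 1.27 times in lungs. *Cry2* (chr2:92403646-92434043, minus strand) overlaps *D930015M05Rik* on the opposite strand over 295 bp of exon, and that gene had at most 5 reads in any library. *Per3* (chr4:151003652-151044665, minus strand) lies within a span of *Camta1* on the same strand, with 0 bp of exon in common. *Camta1* rose in null liver from 5.24 ± 0.948 to 10.7 ± 2.55 CPM (edgeR adjusted p = 0.0159). The overlaps of *Arntl* (33 bp of exon), *Clock* and *Npas2* (0 bp) are with genes not used here, and *Per1*, *Per2*, *Cry1* and *Nr1d2* overlap no annotated gene.

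Genes that work with the core clock were taken from 3 lists of 35 genes in all, of which 34 could be tested in liver and 35 in lung. Like the members, these lists were chosen with earlier results of these data known, so their counts and p-values in the genotype contrasts are a description. The liver calls numbered 17 of 34, with 12 genes up and 5 down in null and a median log2 fold change of 0.23 against 0.02 over all genes. Of all genes tested in liver 26.9% were called, 13.5% higher and 13.4% lower. Leaving out single livers left 5 to 14 called, with 5 without WT liver 3, 6 without WT liver 2, 7 without WT liver 1 and 11 without null liver 2 or 3. Calls over all genes fell in these fits too, from 3856 to 1641 without WT liver 3, 2268 without WT liver 2 and 2150 without WT liver 1. They were 3395 without null liver 2 and 3170 without null liver 3. In lung 1 of the 35 was called, the repressor gene *Bhlhe40*, at 62.6 ± 8.65 CPM in null against 23.5 ± 2.40 CPM in WT (edgeR adjusted p = 0.04997). Leaving out null lung 1 gave 22 calls, of which 20 were up and 2 down, with a median of 0.45 against -0.01 over all genes, of which 37.0% were called, 18.0% higher and 19.0% lower.

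Among the ROR receptors and other core partners, 5 of 9 tested genes passed in liver, with 3 up and 2 down in null, against 26.9% of all genes. *Rora*, the receptor that activates *Arntl* through the elements REV-ERBs occupy, rose from 59.6 ± 6.36 to 139 ± 22.4 CPM (log2 fold change 1.22 ± 0.15 (SE), edgeR adjusted p = 0.00306). *Ciart*, a further repressor of CLOCK and ARNTL, rose from 1.79 ± 0.815 to 5.31 ± 1.93 CPM (edgeR adjusted p = 0.0309). *Arntl2*, the paralogue of *Arntl*, fell from 1.46 ± 0.245 to 0.603 ± 0.133 CPM (edgeR adjusted p = 0.0194), and *Timeless* fell from 36.8 ± 0.785 to 28.8 ± 3.24 CPM (edgeR adjusted p = 0.0391). In lung without null lung 1, *Rora*, *Rorb* (0.143 CPM in WT lungs) and *Ciart* passed upwards and *Timeless* downwards, with log2 fold changes of 1.30, 2.19, 2.13 and -1.08. With all 6 lungs these were 1.19, 1.89, 1.91 and -0.58, and none passed.

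The output factors carry clock time to other genes, DBP, TEF and HLF as activators at D-boxes and NFIL3 as a repressor at the same sites. In liver 2 of 6 were called, a share near the 26.9% of all genes called there. *Nfil3* rose from 16.0 ± 1.89 to 47.0 ± 12.5 CPM (log2 fold change 1.55 ± 0.20 (SE), edgeR adjusted p = 0.00353). *Hlf* fell from 78.5 ± 9.20 to 31.6 ± 4.65 CPM (log2 fold change -1.32 ± 0.14 (SE), edgeR adjusted p = 0.00261). *Dbp*, in adult liver one of the most rhythmic transcripts, stood at 3.90 ± 0.731 and 5.01 ± 1.68 CPM in WT and null livers (edgeR adjusted p = 0.392). In lung without null lung 1 all 6 were called higher in null, by log2 fold changes of 0.51 (*Hlf*) to 2.02 (*Bhlhe41*), with *Dbp* at 1.86. Of all genes in that fit 37.0% were called and 18.0% were called higher. *Dbp* gave 3.35 ± 0.686 CPM in WT lungs and 12.2 ± 4.60 CPM in null lungs 2 and 3.

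Of 19 kinases, phosphatases and ubiquitin ligases that act on clock proteins, 10 passed in liver, with 8 up and 2 down, against 26.9% of all genes. *Csnk1e*, a casein kinase that phosphorylates PER proteins, rose from 19.7 ± 2.66 to 33.2 ± 4.73 CPM (edgeR adjusted p = 0.0133). *Btrc*, which marks PER proteins for breakdown, fell from 45.7 ± 3.29 to 31.7 ± 4.79 CPM (edgeR adjusted p = 0.0196), and *Prkaa1*, a catalytic subunit of AMP kinase, fell from 32.3 ± 1.85 to 24.6 ± 1.08 CPM (edgeR adjusted p = 0.0228). In lung 0 of the 19 were called with all 6 libraries and 11 without null lung 1, with 10 up and 1 down, against 37.0% of all genes. *Csnk1e* then gave a log2 fold change of 0.54 ± 0.10 (SE, edgeR adjusted p = 0.00623).

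**Figure D5:**
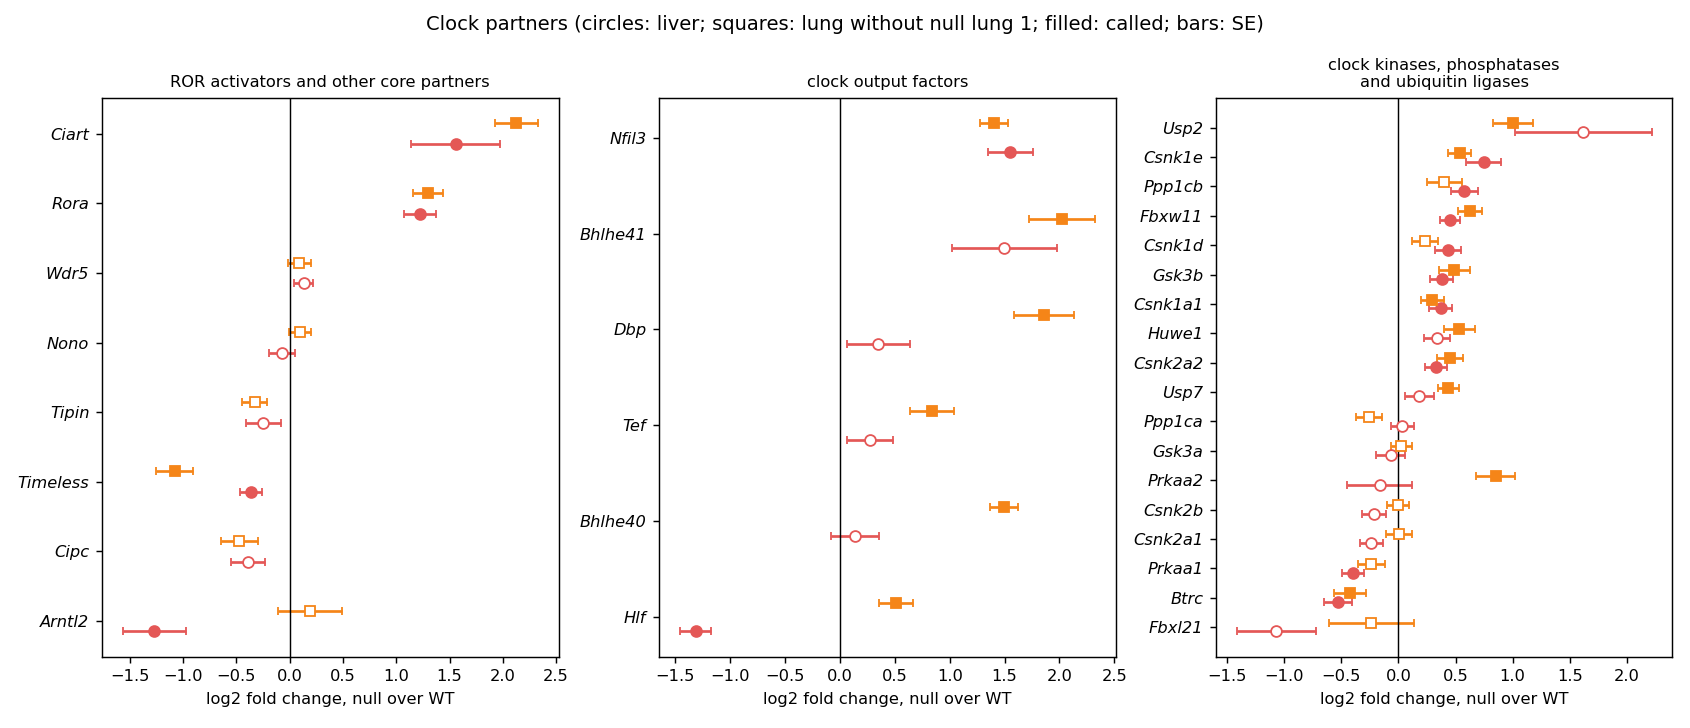
Log2 fold change of null over WT for the clock partners and regulators reported here, in 3 lists, with standard errors from edgeR. Circles are liver, squares are lung without null lung 1, and filled symbols passed the cut-off. Rora, Ciart, Nfil3 and Csnk1e are filled on the right of 0 in both tissues, and Hlf is filled on the left in liver and on the right in lung.

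Genes that the clock is known to drive were counted last, again as a description, from a list chosen with earlier results known. Of 11 output enzymes and regulators tested in liver, 6 were called and all 6 were higher in null, with a median log2 fold change of 0.65, where 26.9% of all genes were called and 13.5% were called higher. *Rgs16*, a regulator of G protein signalling, went from 17.0 ± 4.52 to 227 ± 173 CPM (log2 fold change 3.73 ± 0.54 (SE), edgeR adjusted p = 0.00464), with a wide spread among null livers. *Upp2*, a uridine phosphorylase, went from 150 ± 9.51 to 397 ± 137 CPM (log2 fold change 1.40 ± 0.23 (SE), edgeR adjusted p = 0.00616). In lung 0 of 10 were called with all 6 libraries and 5 of 11 without null lung 1, all 5 higher. Without that library 37.0% of all genes were called and 18.0% were called higher.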

How the data were processed

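RNA of liver and lung from newborn WT and null pups was compared, with groups and replicate numbers taken from the sample labels. The authors made stranded, polyadenylated libraries, read them as pairs of 75 bp and deposited raw counts, as whole reads per gene symbol in 1 table per library, without normalization. The submitters' processing notes name FastQC, STAR 2.5.2a, DESeq2 and the build mm10, and the counting program, annotation and strand setting are not given in the sources used here. Reads shared by overlapping genes could therefore be counted in more than one way. In 27 rows the symbol reads as a date, and these were tested but not named.

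The deposited counts entered edgeR 4.0.16 under R 4.3.3 (filterByExpr, TMM, quasi-likelihood test, Benjamini-Hochberg adjustment over all genes tested), called at an adjusted p under 0.05 and 1.2-fold, the cut-off of the study. Each standard error is the absolute log2 change divided by the root of the F statistic. CPM were scaled by TMM over the 12 libraries, and a pseudocount of 0.5 was used on the log scale. Exon lengths and positions came from GENCODE M21. The members and lists were chosen with earlier results of these data known. Beside the members and genes that overlap them, the 5 genes most and least correlated with *Arntl* were named. From each list, up to 2 called genes with the largest rise and 2 with the largest fall in liver were named. *Dbp*, *Rorb*, *Bhlhe40* and *Bhlhe41* were named outside this rule. Intervals from depth cover counting error only. The authors' methods take 3 mice per genotype, so within a tissue p-values measure the spread between libraries of different mice. In lung that spread includes the tissue content of null lung 1. Fits that join liver and lung took libraries of the same number as unpaired, except where the replicate block is named.

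No library was a copy of another (lowest chi-square per gene 15.4 within a group). Liver and lung of one genotype and number correlated at 0.184 to 0.468 in their deviations from group means, in all 6 pairs. This was taken as pairing from the data, since the labels do not say that such libraries share a pup. The highest value joined null liver 1 and null lung 1, both with muscle RNA. Pairs of unlike number were not compared, so a shared pup is not shown. WT and null of one number are different mice and correlated at -0.043 to 0.143. Single values of some list members are not reported here, though the list counts include them. Alternatives were DESeq2 1.42.0, other scalings and filters, no minimum fold change, all 12 libraries in 1 fit, the replicate block and leaving out each library.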

Additional observations from a re-analysis of the deposited data

How the results depend on the processing

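In liver, the number of clock genes called stayed at 7 under DESeq2, 3 other scalings, both filters and no minimum fold change, and leaving out single livers gave 6 to 7. With all 12 libraries in 1 fit it was 4 (*Per1*, *Cry2*, *Nr1d1*, *Nr1d2*), with *Arntl*, *Per2* and *Cry1* lost at almost the same log2 fold change, and 9 partner genes were called in place of 17. Leaving out single livers gave 5 to 14 partner genes. In lung, the 2 calls became 4 with DESeq2 or all 12 libraries in 1 fit (*Per1* and *Cry2* added), 0 with RLE size factors, TMM without the most abundant genes or every gene with 1 count, and 0 to 7 without single lungs, the 7 being without null lung 1. The 1 partner call in lung became 9 with DESeq2, 8 with all 12 libraries, 5 with at least 10 counts in every library, 0 under the same 3 settings as the members, and 0 to 22 without single lungs. Where lung lost its calls, the log2 fold changes of *Nr1d1* and *Nr1d2* stayed at 1.91 to 3.10. Over all genes, lung had 51 calls against 2355 with DESeq2, 2284 with all 12 libraries in 1 fit, 210 with at least 10 counts, 109 with upper-quartile factors, 5 without the most abundant genes, 2 with RLE factors, 0 with every gene with 1 count and 0 to 5881 without single lungs. Liver had 3856 against 1921 with all 12 libraries and 1641 to 3451 without single livers, and lung minus liver had 60 against 617 with DESeq2, 92 with at least 10 counts, 33 with every gene with 1 count and 0 to 813 without single libraries.

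With the replicate block, 6 clock genes and 12 partners were called in liver, 0 and 0 in lung, 0 for lung minus liver and 9 between the WT tissues. WT and null numbers do not mark pairs, so the lost lung calls say nothing of size. The tissue numbers were taken as pairs from the data, though a shared pup is not shown. With them as a block, the same 9 members were called between the WT tissues. For lung minus liver the block left 0 of all genes called, so the 0 members there show nothing. For lung minus liver, leaving out single libraries gave 0 to 3 calls, the 3 being without null lung 1. The WT tissue count was 8 to 9 under each alternative, *Cry2* being the call lost.

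Signs turned only for members near 0. *Npas2* in lung was 0.0007 and gave -0.0342 with upper-quartile factors, -0.0188 with every gene with 1 count and -0.1804 to 0.1018 without single lungs. *Npas2* for lung minus liver (0.11) gave -0.0402 to 0.2385 without single libraries, negative without null liver 2 or WT lung 1. *Cry1* in lung gave -0.2694 to 0.1278 and the *Arntl* difference between tissues -0.4221 to 0.0650, both positive only without null lung 1. The limb contrast moved without *Nr1d1*, to -0.44 in liver and -0.41 in lung, and otherwise lay at -0.78 to -0.62 in liver and -0.87 to -0.58 in lung. The cause of these changes was not tested.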

Other observations

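Other inputs that are known to reach the period genes were counted from lists of 12 genes each. These lists were chosen with earlier results of these data known, so their counts and p-values are a description. Of the glucocorticoid targets, 10 were called in null liver, all higher, with a median log2 fold change of 1.34 against 0.02 over all genes, of which 26.9% were called and 13.5% were called higher. *Zbtb16* went from 14.4 ± 12.9 to 92.1 ± 32.4 CPM (edgeR adjusted p = 0.0182), and *Mt2*, a metallothionein, from 233 ± 161 to 1350 ± 598 CPM (edgeR adjusted p = 0.0149). In lung 0 were called with all 6 libraries and 10 without null lung 1, all higher, with a median of 1.30, where 37.0% of all genes were called and 18.0% were called higher. *Per1* and *Nr1d1* are in none of these lists.

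Of the immediate early and cyclic AMP response genes, 9 were called in null liver, all higher, with a median log2 fold change of 1.85. Of all genes tested in liver, 26.9% were called and 13.5% were called higher. *Fosb* went from 0.384 ± 0.280 to 5.28 ± 4.01 CPM (edgeR adjusted p = 0.0226) and *Atf3* from 3.25 ± 0.295 to 25.0 ± 18.5 CPM (edgeR adjusted p = 0.00985), with null SDs of the order of the means. In lung 0 were called with all 6 libraries and 5 without null lung 1, all 5 higher, where 37.0% of all genes were called and 18.0% higher. Of the hypoxia targets, 4 were called in null liver, all higher, with a median of 0.37, beside the same 26.9% and 13.5% of all genes. *Bnip3* went from 176 ± 47.2 to 463 ± 78.5 CPM (edgeR adjusted p = 0.00669) and *Ndrg1* from 175 ± 15.4 to 306 ± 68.2 CPM (edgeR adjusted p = 0.0188). In lung 0 were called with all 6 libraries and 5 without null lung 1, 4 higher and 1 lower. Without that library 37.0% of all genes were called, 18.0% higher and 19.0% lower. The part of these genes in the clock values was not tested.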
